A study of Mus musculus with 2 samples.

Results

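The genes described here encode the enzymes and transporters that bring glucose into the cell, carry it through glycolysis to pyruvate, and hand pyruvate on to lactate or to the mitochondrion. They were chosen by name and not by their values, although earlier results of these data were known. A fixed list gave 31 genes, and pyruvate kinase M, which the files hold as Pkm, was added. All 32 genes were found among the 20211 gene symbols measured. Of the 32, 29 averaged 1 RPKM or more over the pair of libraries and were kept, as were 10068 of all genes, while Slc2a3, Slc2a4 and Aldoc lay below that level.

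RNA was sequenced from perivascular cells (PCs), the mural cells that wrap blood vessels, cultured from the aorta of C57BL/6 mice. One library came from wild type (WT) PCs and 1 from Kai1 KO PCs, in which Kai1, the gene of the membrane tetraspanin CD82, was knocked out. Both were grown in DMEM, with 10% fetal bovine serum by the sample labels and in high glucose with 20% serum by the study's culture methods. How the knockout was made, how many animals gave cells and the passage at which RNA was taken are not given in the sources used here. With 1 library per genotype the values have no replicate check and no test was made, so differences between genotypes cannot be told apart from differences between animals, cultures or preparations.

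Values are in RPKM, a read count divided by the length of the transcript and by the depth of the library, which allows levels of different genes to be compared. The targeted gene, listed as Cd82, stood at 12.8 RPKM in WT PCs against 2.62 in Kai1 KO PCs. From the steps between low RPKM values, the depth was estimated at 29500000 reads for WT and 26600000 for Kai1 KO PCs. The reads behind a gene were estimated from this depth and its longest transcript, so they can be too high. Intervals given below come from these estimated reads, cover counting error only and can be too narrow. Of the mural markers, Acta2 stood at 3823 and 2580 and Pdgfrb at 44.7 and 31.6 RPKM in WT and Kai1 KO PCs, while the pericyte marker Rgs5 was near 0 in both, at 0.0630 and 0.233. The endothelial markers summed to 2.22 and 1.01 RPKM, and 7 of the 8 were listed at 0 in the Kai1 KO library. The 4 Y-linked genes above 0 in the WT library, at 0.479 to 6.56 RPKM, had an RPKM of 0 in Kai1 KO PCs. This difference cannot be told apart from the genotype here, and its part in the results, or that of the donors' sex, was not tested. The median log2 ratio was 0.08 both for the 270 X-linked and for the 9217 autosomal genes kept, which does not measure that part.

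Glycolysis begins when glucose transporters let the sugar into the cell and hexokinase traps it as a phosphate. The preparatory steps spend ATP, and phosphofructokinase sets much of the pace. The payoff steps, from glyceraldehyde phosphate dehydrogenase to pyruvate kinase, return ATP and end in pyruvate. Lactate dehydrogenase turns pyruvate into lactate, which monocarboxylate transporters carry out of the cell, and pyruvate dehydrogenase turns it into acetyl-CoA in the mitochondrion unless the pyruvate dehydrogenase kinases switch it off. Many steps can be served by several isoenzymes, each from its own gene, and tissues differ in which they use. Dividing cells and cells of the vessel wall are known for a high rate of lactate production.

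Glycolytic genes are known for hypoxia response elements in their promoters, whose core is ACGTG, read as CACGT on the opposite strand. The core was searched on both strands in the 250 bases before the RefSeq start site of each gene (GRCm38.p6), and overlapping matches were counted separately. A promoter was found for 30 of the 32 genes, and 12 of these, or 40%, held at least 1 match. The share was 16.5% over all 27025 promoters and 22.6% over the 7644 promoters of genes kept. The median GC content was 61.6% in the promoters of the glycolysis genes and 60.4% in those of the genes kept. Printed here are the promoters of the lactate dehydrogenase pair, whose values moved apart, and of Hk2, which was lower in Kai1 KO PCs. Capitals mark the matches, and the sequences read in the direction of the gene.
Ldha: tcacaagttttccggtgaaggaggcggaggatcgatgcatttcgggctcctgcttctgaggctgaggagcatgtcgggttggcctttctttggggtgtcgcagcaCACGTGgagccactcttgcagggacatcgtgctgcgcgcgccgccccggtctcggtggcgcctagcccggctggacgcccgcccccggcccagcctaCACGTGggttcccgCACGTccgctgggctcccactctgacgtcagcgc
Ldhb: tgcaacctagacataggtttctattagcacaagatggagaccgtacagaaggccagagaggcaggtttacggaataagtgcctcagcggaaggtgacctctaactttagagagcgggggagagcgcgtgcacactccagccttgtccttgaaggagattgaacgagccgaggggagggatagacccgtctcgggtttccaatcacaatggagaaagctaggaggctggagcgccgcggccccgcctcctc
Hk2: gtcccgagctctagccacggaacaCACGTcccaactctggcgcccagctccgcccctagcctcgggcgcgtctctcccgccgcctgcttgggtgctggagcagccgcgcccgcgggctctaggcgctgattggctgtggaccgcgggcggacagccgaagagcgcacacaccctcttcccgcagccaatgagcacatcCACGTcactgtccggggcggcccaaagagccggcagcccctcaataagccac
The Ldha promoter, chr7:46845554-46845803 on the plus strand, held 5 matches, of which those at -145 and -144 and those at -48 and -47 from the start site overlap in the palindrome CACGTG. The Ldhb promoter, chr6:142507958-142508207 on the minus strand, held 0. The Hk2 promoter, chr6:82774455-82774704 on the minus strand, held 2 matches in the CACGT direction, at -226 and -52. Among the 29 genes kept, the median log2 ratio was 0.19 for the 12 with a match and 0.15 for those without. Over the 7644 genes kept with a promoter the order was the opposite, at 0.08 with a match and 0.09 without. A match of letters does not show that a factor binds there, and its absence here does not exclude a core outside the bases searched.

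As a whole the pathway was strongly expressed in both libraries. The 32 genes summed to 9572 RPKM in WT PCs and 13347 in Kai1 KO PCs, which was 1.08% of the summed RPKM of all genes in each. Ribosomal protein genes took 37.3% of the sum in WT PCs and 48.6% in Kai1 KO PCs. Without them, the pathway made up 1.73% in WT and 2.10% in Kai1 KO PCs. Gapdh alone gave 44.3% and 44.9% of the pathway's sum and was the gene of rank 37 in WT and 45 in Kai1 KO PCs. In WT PCs 10 of the 32 genes stood at 100 RPKM or more, and in Kai1 KO PCs all of these but Eno3. In the plot of levels by library these genes form the cluster on the right, and the transporters and regulators spread over the lower range.

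**Figure D1:**
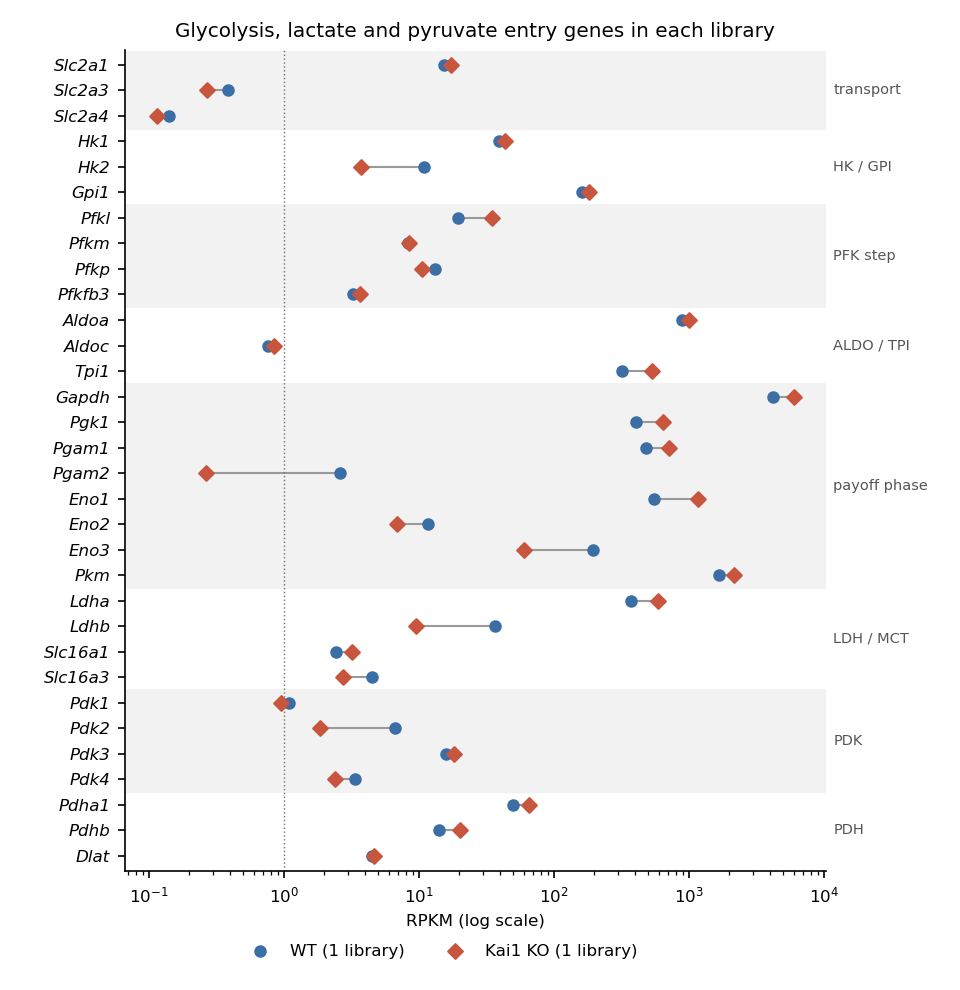
RPKM of the 32 genes on a log axis, with the WT library as blue circles and the Kai1 KO library as red diamonds, 1 library each, and a dotted line at 1 RPKM. Values run from 0.115 RPKM for Slc2a4 to 5997 for Gapdh, and the longest lines between the libraries belong to Pgam2, Ldhb, Pdk2, Eno3 and Hk2, all with the lower value in Kai1 KO PCs.

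Between the libraries, a few isoenzyme genes stood apart from the rest. Ratios are log2 of Kai1 KO over WT, with 0.1 RPKM added on both sides. Of the 29 genes kept, 5 were more than 2-fold lower in Kai1 KO PCs, which is 17.2% against 7.81% of all genes kept. They were Hk2, Pgam2, Eno3, Ldhb and Pdk2, and in each case another gene of the same family was more abundant in both libraries. Only Eno1 was more than 2-fold higher, which is 3.45% against 7.98% of all genes kept. The median log2 ratio was 0.17 over the 29 genes and 0.08 over all genes kept, with 19 of the 29 above 0. It was 0.16 over all 32 genes, and also over the 26 genes kept that are not X-linked. With the RPKM sums of the libraries made equal the median over the 29 genes was -0.31, and with the libraries scaled to Actb it was 1.11. The median of all genes kept moved to -0.39 and 1.01 under these scalings. A scaling shifts every gene by about the same amount, so the gap of 0.09 to 0.10 between the medians is kept by construction. Another filter can move the gap, which was 0.16 without a filter and 0.06 at a mean RPKM of at least 5.

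**Figure D2:**
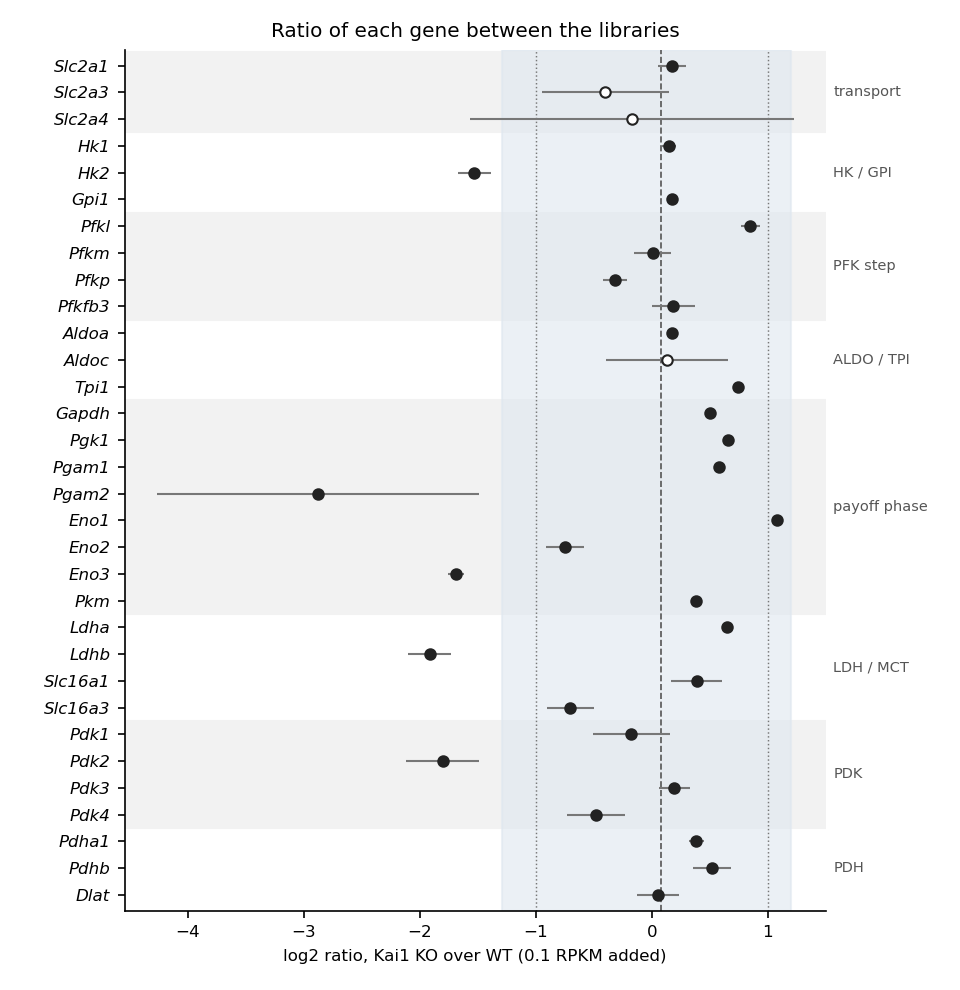
Log2 ratio of Kai1 KO over WT for each gene, with bars for the 95% interval of counting error, open circles for the genes averaging below 1 RPKM, a dashed line at the median of all genes kept (0.08), dotted lines at 2-fold and a shaded band from the 5th to the 95th percentile of all genes kept (-1.29 to 1.20). Hk2, Pgam2, Eno3, Ldhb and Pdk2 lie to the left of the band in these values as deposited, and Eno1 alone lies beyond the dotted line on the right.

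The level split the pathway as well. Of the 10 genes averaging 100 RPKM or more, 9 had a ratio above 0 as deposited, with Eno3 the exception, but only 6 with RPKM sums made equal, where Aldoa, Gpi1 and Pkm were below 0 too, and 5 when scaled to Gapdh. Their median was 0.54 as deposited. Among the 836 other genes at that level that encode no ribosomal protein, 64.5% were above 0 and the median was 0.25. Of the 19 genes from 1 to below 100 RPKM, 10 were above 0, and their median of 0.01 lay beside 0.06 for all genes in that range.

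Of the glucose transporter genes described here the most abundant was Slc2a1, the basal glucose transporter GLUT1, chr4:118781316-118809935 in mm9. Its RPKM was 15.4 in WT PCs and 17.4 in Kai1 KO PCs, a log2 ratio of 0.17 ± 0.12. The value was a little higher in Kai1 KO PCs, but it turned to -0.32 with the libraries scaled to Gapdh. Slc2a3, the high-affinity transporter GLUT3, gave 0.386 and 0.269 RPKM, from about 69 and 43 reads. Slc2a4, the insulin-responsive GLUT4 of muscle and fat, gave 0.142 and 0.115, from about 10 and 7 reads. Slc2a1 held 96.7% of the summed RPKM of these 3 genes in WT PCs and 97.8% in Kai1 KO PCs, and the intervals of the shares, 95.5% to 97.6% and 96.8% to 98.5%, overlapped. Of further transporter genes of this family, outside that sum, Slc2a8 stood at 6.51 and 5.35 RPKM and Slc2a10 at 2.26 and 1.94 in WT and Kai1 KO PCs.

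The hexokinase step differed in make-up and little in sum. Hk1, the widely expressed hexokinase, stood at 39.2 RPKM in WT and 43.5 in Kai1 KO PCs. Hk2, the hexokinase typical of muscle, fat and many growing cells, chr6:82675019-82724448 in mm9, stood at 11.0 and 3.75, a log2 ratio of -1.53 ± 0.14 from about 1725 and 530 reads. Only 3.81% of genes kept had a lower ratio than Hk2. Hk1, Hk2 and Hk3 summed to 50.2 RPKM in WT PCs and 47.3 in Kai1 KO PCs, and within that sum the share of Hk2 was 21.9% (20.9% to 22.9%) in WT and 7.92% (7.22% to 8.68%) in Kai1 KO PCs. Hk3, a further hexokinase gene, stayed below 0.1 RPKM in both libraries. Gpi1, which encodes the next enzyme, glucose phosphate isomerase, had 162.5 RPKM in WT and 183.6 in Kai1 KO PCs, a log2 ratio of 0.18 that turned to -0.32 with scaling to Gapdh.

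At the phosphofructokinase step the liver-type gene held more of the family in Kai1 KO PCs. Pfkl stood at 19.4 RPKM in WT and 35.1 in Kai1 KO PCs, a log2 ratio of 0.85 ± 0.08, and stayed higher in Kai1 KO PCs in all 10 settings. The muscle-type gene Pfkm was almost equal, at 8.36 and 8.43 RPKM. The platelet-type gene Pfkp was at 13.3 in WT and 10.6 in Kai1 KO PCs. Together they summed to 41.1 and 54.2 RPKM, and the share of Pfkl was 47.3% in WT against 64.8% in Kai1 KO PCs, while that of Pfkp was 32.4% against 19.6%. Pfkfb3, whose enzyme makes the main activator of phosphofructokinase, had 3.24 RPKM in WT and 3.70 in Kai1 KO PCs, a log2 ratio of 0.19 ± 0.18 that turned to -0.30 with scaling to Gapdh.

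Aldolase came almost wholly from Aldoa, the muscle-type gene used in most tissues, with 896 RPKM in WT and 1012 in Kai1 KO PCs and 99.9% of the family in both. Aldoc, the brain-type aldolase, had 0.765 RPKM in WT and 0.848 in Kai1 KO PCs, from about 58 reads in each library. Tpi1, the isomerase that makes both triose phosphates available to the payoff phase, was at 322 in WT and 539 in Kai1 KO PCs. Its log2 ratio of 0.74 ± 0.03 was exceeded in the pathway only by those of Pfkl and Eno1 as deposited, and it stayed above 0 in all 10 settings. An exon of Tpi1 overlaps Spsb2 on the other strand, and whether the library kept the strand is not given in the sources used here.

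The payoff phase held the most abundant genes. Gapdh stood at 4238 RPKM in WT and 5997 in Kai1 KO PCs, a log2 ratio of 0.50. Pgk1, the X-linked phosphoglycerate kinase gene, stood at 408 and 642, a ratio of 0.65. Pgam1, the widely expressed phosphoglycerate mutase gene, stood at 479 and 715, a ratio of 0.58. All 3 were higher in Kai1 KO PCs as deposited, and with RPKM sums made equal their ratios shrank to 0.02, 0.17 and 0.09. Pkm, the pyruvate kinase gene of most tissues, whose alternative transcripts are not told apart in these values, stood at 1676 RPKM in WT and 2177 in Kai1 KO PCs. Its log2 ratio of 0.38 turned to -0.11 with RPKM sums made equal. The counting intervals of these genes were at most ± 0.03. Named pseudogenes exist for Pgam1, which can share its reads. Only pseudogenes named after their parent gene were looked for, so shared reads are not excluded for the other genes.

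Enolase differed most in make-up, with Eno1 holding 21.7 percentage points more of the family in Kai1 KO PCs, the widest gap of any share computed. Eno1, the widely expressed alpha-enolase gene, chr4:149610830-149622988 in mm9, had 556 RPKM in WT and 1173 in Kai1 KO PCs. Its log2 ratio of 1.08 ± 0.02 lay above that of 93.4% of genes kept. It stayed above 0 in all 10 settings and beyond 2-fold in 5 of them. Of the settings that rescale the libraries, only scaling to Actb left it beyond 2-fold, and the others gave 0.58 to 0.99. Eno3, the beta-enolase gene typical of muscle, chr11:70470704-70476015 in mm9, had 195 RPKM in WT and 60.7 in Kai1 KO PCs, a log2 ratio of -1.69 ± 0.07 from about 7871 and 2202 reads. Eno2, the gamma-enolase gene typical of neurons, was also lower, at 11.7 and 6.91 RPKM, except with scaling to Actb, where its ratio was 0.18. Within the family, the share of Eno1 went from 72.9% in WT to 94.6% in Kai1 KO PCs, and that of Eno3 from 25.6% (25.2% to 26.0%) to 4.89% (4.72% to 5.07%). The ratio of Eno1 to Eno3 was 2.85 in WT and 19.3 in Kai1 KO PCs, a 6.79-fold difference that no scaling of the libraries can alter.

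Pgam2, the muscle-type phosphoglycerate mutase gene, was rare in both libraries. It had 2.59 RPKM in WT and 0.266 in Kai1 KO PCs, from about 49 and 5 reads. The log2 ratio of -2.88 carried a counting interval of ± 1.39, and with 1 RPKM added in place of 0.1 it was -1.50. Since Pgam1 made up over 99.4% of the family in each library, the lower value of Pgam2 hardly touched the family's sum of 482 RPKM in WT and 716 in Kai1 KO PCs.

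Lactate dehydrogenase also differed in make-up, with the minor gene lower and the major gene higher in Kai1 KO PCs under every setting tried. Ldha encodes the subunit known for converting pyruvate to lactate in muscle and in glycolytic cells, and Ldhb the subunit typical of heart and other oxidative tissue. Ldha, chr7:54096845-54110997 in mm9, had 374 RPKM in WT and 588 in Kai1 KO PCs, a log2 ratio of 0.65 ± 0.03. Ldhb, chr6:142438769-142456477 in mm9, had 36.4 in WT and 9.60 in Kai1 KO PCs, a log2 ratio of -1.91 ± 0.19 from about 1188 and 282 reads. Only 2.51% of genes kept had a lower ratio than Ldhb. The share of Ldhb in the pair was 8.87% (8.47% to 9.29%) in WT and 1.61% (1.46% to 1.77%) in Kai1 KO PCs, and the ratio of Ldha to Ldhb was 10.3 against 61.3. Named pseudogenes exist for Ldha too. Of the promoters printed above, those of Ldha and Hk2 held the hypoxia core and that of Ldhb did not. In the enolase family, where Eno1 and Eno3 also moved apart, the promoters of both held 0 matches in the bases searched. Bases farther from the start site were not searched, so whether Eno1, Eno3 or Ldhb holds a core elsewhere was not tested.

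**Figure D3:**
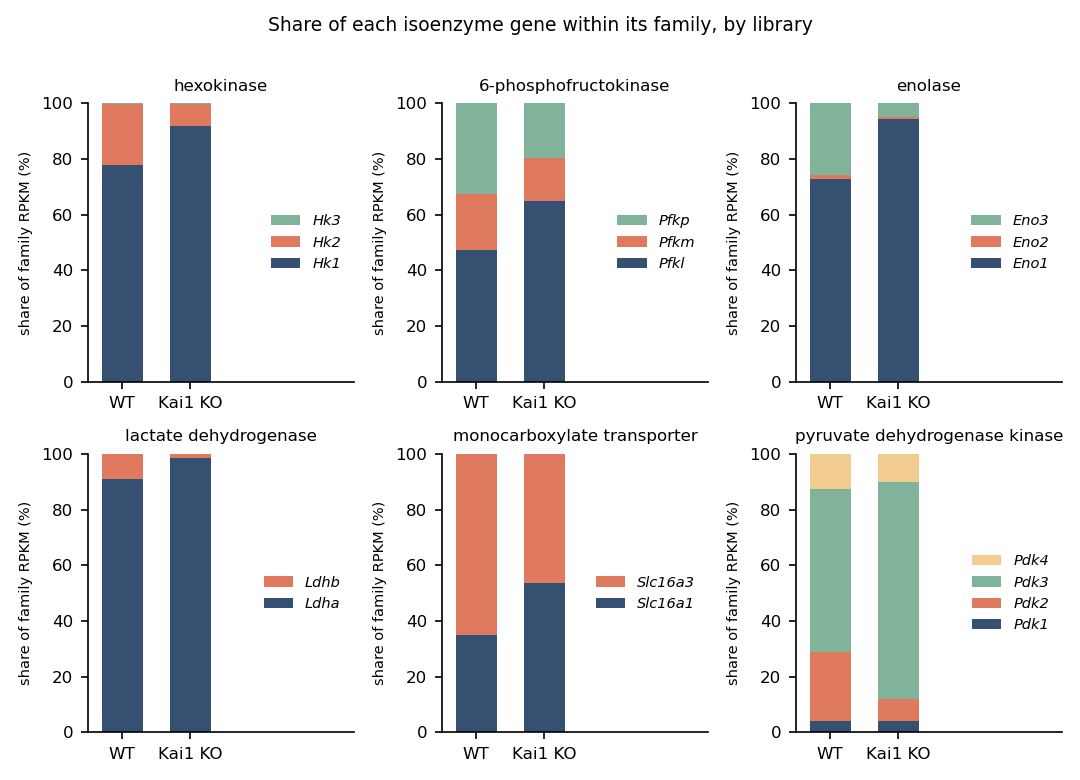
Share of each gene in the summed RPKM of its family (percent, bars start at 0), with 1 bar for the WT and 1 for the Kai1 KO library in each of 6 families. The share of Hk2 was 21.9% and 7.92%, that of Eno3 25.6% and 4.89%, that of Ldhb 8.87% and 1.61% and that of Pdk2 24.7% and 7.89% in WT and Kai1 KO PCs, and no scaling between the libraries changes these shares.

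The plasma membrane lactate transporters were both at low levels. Slc16a1, the transporter MCT1, had 2.43 RPKM in WT and 3.20 in Kai1 KO PCs, a log2 ratio of 0.39 ± 0.22. Slc16a3, the transporter MCT4 known for lactate export from glycolytic cells, had 4.55 and 2.76, a ratio of -0.70 ± 0.20. The more abundant of the pair was Slc16a3 in WT PCs, 65.2% of their sum (62.0% to 68.4%). In Kai1 KO PCs Slc16a1 held 53.8% (49.96% to 57.5%), an interval that includes equal shares, so neither gene clearly led there. An exon of Slc16a3 overlaps Csnk1d on the other strand. Their partner protein basigin, from Bsg, was abundant at 641 and 696 RPKM.

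Of the pyruvate dehydrogenase kinases, which inhibit the entry of pyruvate into the citric acid cycle, Pdk3 was the most abundant in both libraries. Pdk3 had 15.9 RPKM in WT and 18.2 in Kai1 KO PCs. Pdk2, the kinase gene expressed in most tissues, chr11:94887572-94902668 in mm9, had 6.70 in WT and 1.85 in Kai1 KO PCs, a log2 ratio of -1.80 ± 0.31 from about 405 and 101 reads. Pdk4, the kinase gene known for its response to fasting, had 3.38 and 2.39, a ratio of -0.48 ± 0.25. Pdk1, the kinase gene known as a hypoxia target, had 1.10 and 0.962, a difference within its counting interval of ± 0.33. The kinases summed to 27.1 RPKM in WT and 23.5 in Kai1 KO PCs, and the share of Pdk2 was 24.7% against 7.89%.

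The pyruvate dehydrogenase genes themselves were level or slightly higher in Kai1 KO PCs as deposited, although only Pdhb stayed above 0 with scaling to Gapdh or to equal RPKM sums. Pdha1, the X-linked gene of the alpha subunit that the kinases phosphorylate, had 49.9 RPKM in WT and 65.2 in Kai1 KO PCs, a log2 ratio of 0.39 ± 0.06 that turned to -0.11 with scaling to Gapdh. Pdhb, the gene of the beta subunit, had 14.1 and 20.2, a ratio of 0.52 ± 0.16, and stayed above 0 in all 10 settings. Dlat, the gene of the acetyltransferase core, had 4.47 and 4.63 RPKM, a ratio of 0.05 ± 0.18. Set against their substrate, the summed kinases were 0.543 of Pdha1 in WT and 0.360 in Kai1 KO PCs. The RPKM of Ldha was 7.50 times that of Pdha1 in WT and 9.02 times in Kai1 KO PCs.

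How much of this depends on the scaling of the libraries was examined for every gene under 10 settings, the values as deposited among them. The settings with another added RPKM or another handling of repeated symbols cannot change the direction of any of these genes. Hk2, Pgam2, Eno3, Ldhb and Pdk2 were lower in Kai1 KO PCs in every setting. Pgam2 was beyond 2-fold in all 10, and the other 4 in 9, their ratios being -0.61 for Hk2, -0.75 for Eno3, -0.98 for Ldhb and -0.90 for Pdk2 with scaling to Actb. Pfkl, Tpi1, Pgk1, Pgam1, Eno1, Ldha and Pdhb were higher in every setting. No scaling lowers a ratio by more than that to Gapdh, whose own log2 ratio was 0.50. None raises a ratio by more than that to Actb, whose own log2 ratio was -0.94. The genes lower or higher in every setting lay beyond these values as deposited, so their direction could not change. The direction of the remaining 20 genes was not the same in all settings, and among them are Slc2a1, Hk1, Gpi1, Aldoa and Pkm. Gapdh was higher in 9 settings and at 0 by construction when scaled to itself.

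**Figure D4:**
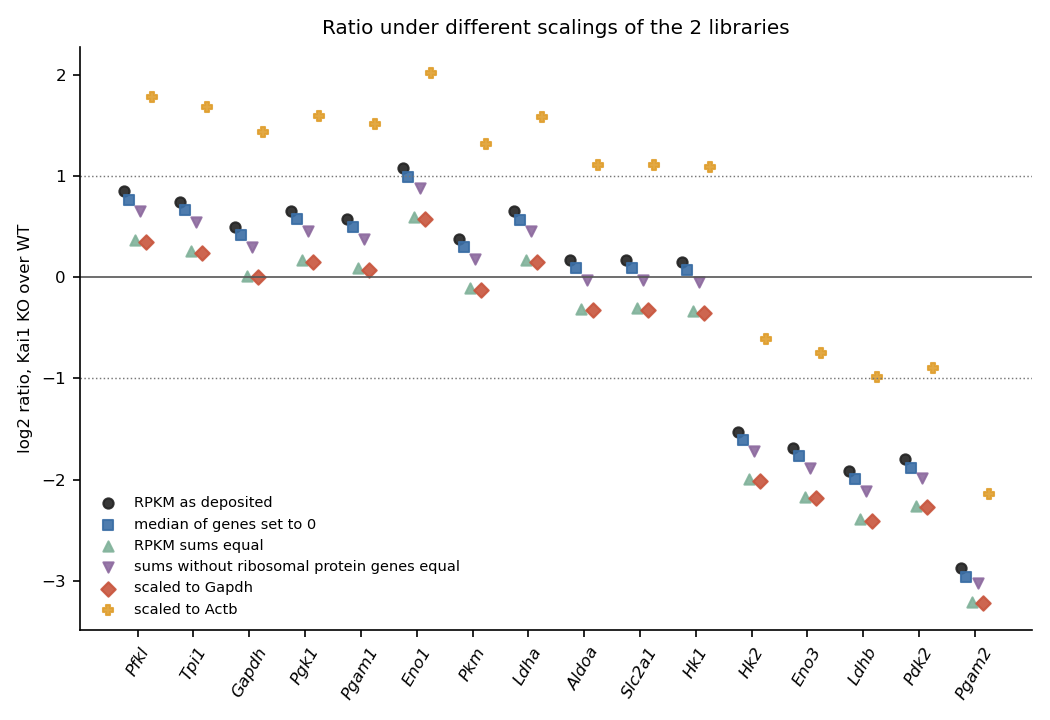
Log2 ratio of Kai1 KO over WT for 16 of the genes under 6 scalings of the libraries, with dotted lines at 2-fold and the points of a gene set side by side. Hk2, Eno3, Ldhb, Pdk2 and Pgam2 lie below 0 under each scaling shown, while Aldoa, Slc2a1 and Hk1 lie above 0 as deposited, below 0 when scaled to Gapdh or to equal RPKM sums, and above 1 when scaled to Actb.

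Gapdh is also the study's reference gene for RT-PCR, and GAPDH and beta-actin its loading controls for protein. The RPKM of Actb was 3691 in WT and 1926 in Kai1 KO PCs, a log2 ratio of -0.94, so that the ratio of Gapdh to Actb was 1.15 in WT and 3.11 in Kai1 KO PCs. Both genes were set beside others that are commonly used as references, 13 in all, chosen after the data were seen. Their log2 ratios ran from -0.94 for Actb to 1.43 for Tfrc with a median of 0.50, and only Ywhaz lay within 0.25 of 0. Pgk1, at 0.65, is 1 of these reference genes as well as a gene of the pathway.

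Other genes of sugar and pyruvate metabolism, 46 in all, were set beside the pathway. Of the 29 kept, 0 were more than 2-fold lower, against 7.81% of all genes kept, and 2 were more than 2-fold higher, which is 6.90% against 7.98%. Their median log2 ratio was 0.13. The higher genes were Pfkfb2, a second gene for the enzyme that makes the activator of phosphofructokinase, with 1.74 RPKM in WT and 10.3 in Kai1 KO PCs, and Emb, which encodes embigin, a partner of the lactate transporters, with 3.10 and 12.9. Their log2 ratios were 2.51 and 2.03. The mitochondrial pyruvate carrier genes were close to level, with Mpc1 at 8.67 and 11.6 and Mpc2 at 28.3 and 31.4 RPKM. In the pentose phosphate branch, which leaves glycolysis at glucose phosphate, G6pdx stood at 47.7 RPKM in WT and 77.4 in Kai1 KO PCs and Tkt at 54.2 and 83.3. The isoenzyme genes Pklr, Pgk2 and Ldhc, typical of liver or testis, were listed at 0 in both libraries.

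Hypoxia targets outside glycolysis were on balance lower in Kai1 KO PCs, with a median log2 ratio of -0.36 over the 13 of 14 kept, except with scaling to Actb, where it was 0.57. As deposited, 4 of the 13 were above 0. Adm, which encodes the vasodilator adrenomedullin, had 28.8 RPKM in WT and 8.82 in Kai1 KO PCs, and Ndrg1 had 3.87 and 1.34. Ddit4, an inhibitor of growth signalling, was more than 2-fold higher, at 7.44 and 15.3 RPKM. Among the regulators of the response, Hif1a was level at 10.3 and 9.65 RPKM, and Epas1, a paralog of Hif1a, had 2.48 in WT and 0.436 in Kai1 KO PCs, a log2 ratio of -2.27. Of 12 transcription regulators of glucose genes, 9 were kept, with log2 ratios from -0.57 to 0.78, inside the 5th to 95th percentile of all genes kept (-1.29 to 1.20). Among them was Myc at 15.6 and 22.0 RPKM.

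**Figure D5:**
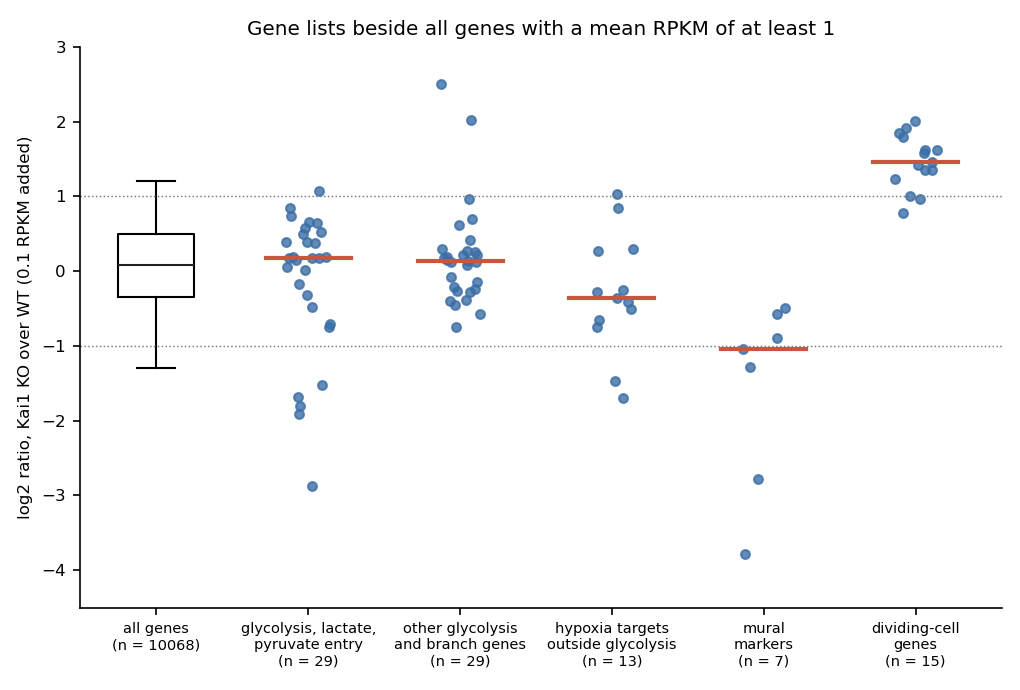
Log2 ratio of Kai1 KO over WT as deposited, for all genes kept (box from the lower to the upper quartile with whiskers at the 5th and 95th percentile) and for the kept genes of 5 lists, with 1 point per gene and a red line at the median. The medians were 0.17 for the glycolysis, lactate and pyruvate entry genes, 0.13 for other glycolysis and branch genes, -0.36 for hypoxia targets, -1.04 for mural markers and 1.46 for genes of dividing cells, and with scaling to Actb that of the hypoxia targets was 0.57.

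Values of other gene groups differed between the same libraries and stand beside these results. The 15 genes of dividing cells were all higher in Kai1 KO PCs, as they were under each scaling, and 13 of them were more than 2-fold higher as deposited, with log2 ratios over the list from 0.78 to 2.01. The 13 were Mki67, Top2a, Cdk1, Ccnb1, Ccnb2, Ccna2, Aurka, Aurkb, Plk1, Birc5, Mcm2, Mcm5 and Pcna. All 7 mural markers kept were lower, from -0.50 for Pdgfrb to -3.78 for Mcam, except with scaling to Actb, where 3 were above 0. As deposited, 4 of them were more than 2-fold lower, namely Tagln, Cnn1, Myh11 and Mcam. Markers of striated muscle, in which Eno3, Pgam2 and Hk2 are typical, summed to 16.9 RPKM in WT and 2.89 in Kai1 KO PCs. Acta1 gave most of the sum in WT PCs, at 15.3 against 0.888 RPKM, and Tnnt3 most of it in Kai1 KO PCs, at 1.45 against 1.89. Myod1 was at 0 in both, Myog at 0.0264 and 0, and Ckm at 0.139 and 0.0308. Macrophage markers summed to 16.5 and 4.23 RPKM, of which Csf1r gave 11.7 and 2.66 and Lyz2 3.44 and 1.09, with Emr1 at 0 in both. Adipocyte markers summed to 13.1 and 6.74, with Fabp4 at 10.6 and 4.53, and Adipoq, Cidec and Lep at 0 in both. The part of these groups in the values of the glycolysis genes was not tested, and in bulk RNA fewer cells of a type and less RNA per cell cannot be told apart.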

How the data were processed

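RNA of WT and Kai1 KO PCs was sequenced by the authors, 1 library each, and aligned to mm9 with TopHat 2.0.9 and Bowtie. The authors deposited 1 RPKM value per RefSeq gene and library, and the submitters' processing notes also name Cufflinks. The library type, the read depth and any scaling between the libraries are not given in the sources used here.

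From the 20462 rows deposited, 38 without a gene symbol were left out, and 153 repeated symbols were averaged. The log2 ratio was log2((Kai1 KO RPKM + 0.1)/(WT RPKM + 0.1)), which understates the change of low genes, and genes averaging 1 RPKM or more were kept. No p-value was computed, since each genotype had 1 library. Depth was estimated from low RPKM values multiplied by transcript length less 200 bases, of which 81.7% in WT and 78.8% in Kai1 KO lay within 0.15 of a whole read. Reads of a gene were estimated with its longest GENCODE M1 transcript, which can overstate them and make the intervals too narrow. Intervals are 95% and cover counting error only. Those of shares are Wilson intervals that apply the RPKM share to the summed reads of the family. They are therefore too narrow for genes with shorter transcripts than the rest of their family. The ratios and the 2-fold counts were tested on simulated data with known changes larger than 2-fold and counting error only. That test holds no variation between animals or cultures, so it does not make up for the missing replicates. Scalings, pseudocounts and filters tried are given with their effect in the closing section. Positions are those of GENCODE M1 (mm9, NCBI37), and promoters those of RefSeq (GRCm38.p6).

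The genes and lists were chosen with earlier results of these data known. All genes of the pathway are named, with Cd82 and Actb, the genes past 2-fold in the lists set beside the pathway and some defining markers at 0. The others named, the 13 reference genes included, were chosen after their values were seen, for their function. Some genes of these families are not reported here. Overlap of exons with a gene on the other strand was found for Slc2a1, Hk1, Gpi1, Pfkp, Tpi1, Slc16a3 and Pdha1. Figures were drawn with matplotlib 3.10.9, and values computed with pandas 2.3.3, numpy 2.4.6, statsmodels 0.14.6 and scipy 1.17.1 under Python 3.11.15.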

Additional observations from a re-analysis of the deposited data

How the results depend on the processing

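No paired analysis was possible because only 1 library stood for each genotype. As deposited, 5 genes of the pathway were more than 2-fold lower and 1 higher in Kai1 KO PCs, with a median log2 ratio of 0.17, beside 786 lower and 803 higher among all genes kept. With the median of all genes set to 0 the pathway's median was 0.0927 and 0 genes were higher. With upper quartiles made equal these were 0.0462 and 0. With RPKM sums made equal the median was -0.31, 7 genes were lower and 0 higher, and 1816 and 286 of all genes were lower and higher, so that higher genes made up 13.6% of those past 2-fold instead of 50.5%. Without ribosomal protein genes in the sums the values were -0.0231, 5 and 0, with 1097 and 509 of all genes (31.7%). Scaled to Gapdh they were -0.32, 7 and 0, with 1856 and 278 (13.0%), and scaled to Actb 1.11, 1 and 17, with 261 and 5085 (95.1%). These scalings shift every gene by about the same amount. The share of higher genes was 41.8% with the median set to 0 and 37.8% with upper quartiles made equal.

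With 1 RPKM added the pathway's median was 0.16. Without a filter it was 0.16, with 1878 genes lower and 1205 higher. At a mean RPKM of at least 5 it was 0.20, and fewer genes passed. There 3 of 21 pathway genes were lower, beside 350 (5.37%) lower and 511 (7.84%) higher among all genes. Without the X-linked genes, a setting chosen after the data were seen, the pathway's median was 0.16. Of 288 ratios of single genes recomputed, 44 changed sign and 29 crossed the 2-fold line. Of those past 2-fold, 0 changed sign, which was fixed in advance because every shift was smaller than 2-fold. The 96 isoenzyme shares recomputed used either another handling of repeated symbols or 0.1 RPKM added to each gene. The former left every share as it was, since no gene of the pathway had a repeated symbol. Of the 96, 3 moved beyond their counting interval, all with 0.1 RPKM added to each gene. These were Hk3 (0.297% in WT and 0.298% in Kai1 KO) and Slc2a1 in Kai1 KO (96.8%). Depth limits Pgam2, Slc2a3, Slc2a4 and Aldoc, each with fewer than 100 estimated reads in both libraries.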
